A study of Mus musculus with 12 samples.

Results

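The genes of the core B cell lineage transcription factors were examined in mouse splenic B cells: Pax5, Ebf1, Bcl6, Bach2, Foxo1, Spi1, Spib, Ets1, Pou2f2 and Pou2af1. They are 10 of 43629 genes in the deposited count table and were taken by name, with earlier results of these data known. All 10 passed the filter on low counts in both comparisons made here. RNA was sequenced from 12 libraries of sorted spleen cells in 3 groups of 4. The Zfp36l1-deficient marginal zone (MZ) group, replicates 1, 2, 7 and 8, had the genotype Zfp36l1fl/flERT2cre/+. The control MZ group, replicates 3, 4, 5 and 6, was ERT2cre/ERT2cre. The follicular (FO) group, replicates 3, 4, 7 and 8, was Zfp36l1fl/fl cre-. All 3 groups carry the strain label Zfp36l1tm1.1Tnr, and by their genotypes deficient and control MZ cells differ in the floxed alleles as well as in ERT2cre copy number. ERT2cre is a Cre recombinase joined to a hormone-binding domain of the oestrogen receptor. Its promoter, any drug treatment and the animals' ages are not stated in the labels. The labels place both sorts in a B220+CD93+ gate, with CD21hi CD23− cells taken as MZ and CD21+CD23+ cells as FO. Separate animals are not stated for the replicates. The p-values therefore speak of the spread among these libraries, part of which may be technical.

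Marginal zone B cells sit at the border of the splenic white pulp and answer blood-borne antigens quickly, whereas follicular B cells recirculate and supply most germinal centre reactions. PAX5 and EBF1 establish and hold B cell identity, activating genes such as Cd79a. PU.1 (encoded by Spi1), SPI-B and ETS1 share the ETS DNA-binding domain, and OCT-2 (Pou2f2) binds octamer sites together with its coactivator OBF-1 (Pou2af1). BCL6 and BACH2 are repressors that oppose the plasma cell programme, and FOXO1 is switched off when PI3 kinase signalling drives it from the nucleus. ZFP36L1 is an RNA-binding protein that speeds the decay of mRNAs whose 3′ untranslated regions (UTRs) hold AU-rich elements.

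The motif TATTTAT, the DNA form of the AU-rich heptamer that ZFP36 proteins bind, was searched on the sense strand of each factor's longest annotated 3′ UTR (GENCODE M21, build GRCm38), overlapping matches included. It was present in the UTRs of Pou2f2, Bach2 and Ebf1 and absent from those of the other 7 factors. The windows are shown because Pou2f2 was the only factor to pass the edgeR test of deficient against control MZ cells. Bach2 and Pou2af1 also had an adjusted p under 0.05 by DESeq2 and in the authors' deposited table. The other windows are the sites to set beside that of Pou2f2. Each window has 30 bases, written 5′ to 3′ on the mRNA's strand, with capitals marking the matches.
Pou2f2, chr7:25087897-25087926 (− strand), 3 overlapping matches: ggcttaaTATTTATTTATTTATgtaattgc
Bach2, chr4:32584921-32584950 (+ strand), 1 match: ctgggagatcaTATTTATaacaagtgaatt
Ebf1, chr11:45004968-45004997 (+ strand), 1 match: tctgggggataTATTTATtctgtattgata
Ebf1, chr11:45006205-45006234 (+ strand), 1 match: caaagttgtttTATTTATacattttaatgt
Ebf1, chr11:45006387-45006416 (+ strand), 1 match: tataaataatgTATTTATctttggaatttg

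In Pou2f2 the 3 matches run into each other, whereas the 3 of Ebf1 lie apart in its UTR. The motif was found in 3393 of 11693 tested genes with an annotated 3′ UTR (29.02%), and it is more frequent in long ones. The Pou2f2 UTR is 5622 bases long, and 64.0% of the 500 tested genes of nearest UTR length held the motif. For Bach2 (5815 bases) this share was 64.2%, and for Ebf1 (3346 bases) it was 52.0%. Pax5 and Foxo1 have the longest UTRs of the 10 factors, with 6752 and 6243 bases, and no match. A match describes the letters of the annotated transcript. Gene counts do not show which UTR a cell uses.

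Deficient cells were checked first by the targeted gene. Zfp36l1 was present at 21.98, 31.84, 28.09 and 37.51 CPM (counts relative to library size, with TMM scaling) in deficient MZ replicates 1, 2, 7 and 8, against 116, 110, 118 and 126 CPM in control MZ replicates 3, 4, 5 and 6, and lay at 352 to 396 CPM in FO libraries. Each deficient library was below each control library (log2 fold change −1.98, SE 0.12; edgeR quasi-likelihood test, adjusted p = 4.18e-07). Exons on the opposite strand cover 55.9% of its exon bases. Depth was 28938453 to 40664963 counts per library, and no library columns were identical (0). MZ and FO marker genes followed the sorts. The 8 MZ markers summed to 7517 to 7921 CPM in control MZ and 1390 to 1761 CPM in FO libraries. The 5 FO markers summed to 1461 to 1830 CPM in control MZ and 8121 to 8229 CPM in FO libraries. Both lists hold a gene of a sorting marker, Cr2 for CD21 and Fcer2a for CD23, so this check was partly set by the gates. Cr2 alone averaged 4114 CPM in control MZ and 1368 CPM in FO cells. In deficient MZ libraries the 8 MZ markers summed to 6661 to 7247 CPM, below every control MZ library, with 3 of the 8 higher and 2 lower than in control MZ cells by the test. The 7 general B cell markers summed to 24789 to 27145 CPM in deficient MZ, 23035 to 25425 CPM in control MZ and 21400 to 23119 CPM in FO libraries. Erythroid markers, 6 in all, summed to 7.21 to 24.9 CPM in deficient MZ, 1.19 to 10.7 CPM in control MZ and 1.85 to 7.12 CPM in FO libraries.

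The 10 factors were transcribed at very different levels. Scaled to reads per kilobase of exon and library size (RPKM), which allows genes to be compared, Pou2af1 and Spib were the highest in all 3 groups when length was taken over all annotated exons. Pou2af1 averaged 251 RPKM in deficient MZ, 295 RPKM in control MZ and 346 RPKM in FO cells, and Spib averaged 212, 230 and 355 RPKM in the same groups. Ets1 followed, at 126 RPKM in deficient MZ, 122 RPKM in control MZ and 208 RPKM in FO cells. Pou2f2, Ebf1, Foxo1 and Spi1 formed a middle tier between 22.1 and 61.8 RPKM across the groups. Pax5, Bach2 and Bcl6 were the lowest in both MZ groups, with means between 3.43 and 4.90 RPKM, whereas in FO cells they lay at 27.7 to 30.8 RPKM, beside Foxo1, Spi1 and Ebf1.

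In control MZ cells the order of length-scaled levels was Pou2af1, Spib, Ets1, Spi1, Ebf1, Foxo1, Pou2f2, Pax5, Bcl6 and Bach2. The library ranges of Foxo1 (23.4 to 27.3 RPKM) and Pou2f2 (21.3 to 25.3 RPKM) overlapped, as did those of the lowest 3, while each other neighbouring pair was separated in all 4 libraries. In deficient MZ cells Pou2f2 (30.7 to 33.0 RPKM) stood above Foxo1 (21.4 to 22.8 RPKM) in all 4 libraries. In FO cells Spib and Pou2af1 overlapped, Ets1 and Pou2f2 each stood apart, and each of the other 6 factors overlapped with its neighbours in the order. The order depends on the exon model. Over the longest transcript in place of all exons, Pou2f2 (27.7 RPKM) stood above Foxo1 (24.9 RPKM) in control MZ cells, and Bcl6 (7.25 RPKM) above Pax5 (5.31 RPKM) and Bach2 (3.84 RPKM). In FO cells Ets1 (347 RPKM) then reached the level of Pou2af1 (346 RPKM), and in deficient MZ cells it came to 210 RPKM beside 218 RPKM for Spib.

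**Figure D1:**
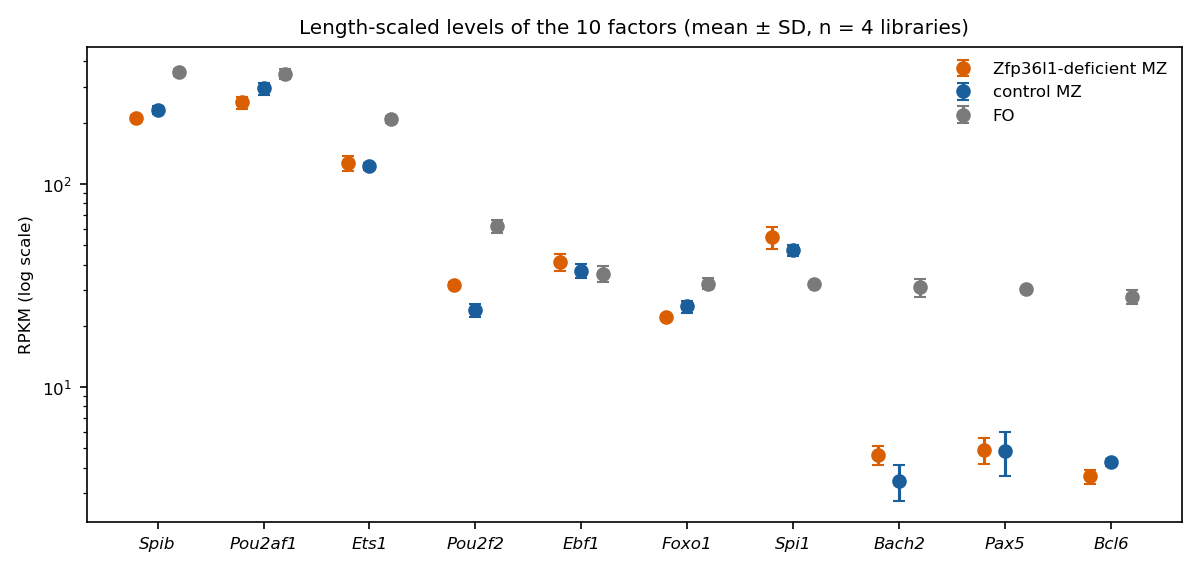
Length-scaled mRNA levels of the 10 factors (vertical axis, RPKM on a log scale) in deficient MZ, control MZ and FO cells; points are means and bars SDs over 4 libraries. Pax5, Bach2 and Bcl6 lie below 5 RPKM in both MZ groups and between 27.7 and 30.8 RPKM in FO cells.

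The first comparison set deficient against control MZ cells, to ask which of these mRNAs differ when Zfp36l1 is lost. Of the 10 factors, Pou2f2 was higher in deficient cells, and for the other 9 no change passed the test. The 1 of 10 called compares with 526 of 13987 genes called over the whole table, or 3.76% (2.3% higher and 1.46% lower). The median log2 fold change was 0.03 over the 10 factors and −0.0037 over all genes tested. In the authors' deposited table, 3 of the 10 had an adjusted p under 0.05.

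Pou2f2 encodes OCT-2, the octamer-binding activator that B cells use in antigen and cytokine responses. It reached 253, 263, 263 and 272 CPM in deficient replicates 1, 2, 7 and 8, against 208, 194, 176 and 208 CPM in control replicates 3, 4, 5 and 6. All 4 deficient libraries were above all 4 control libraries. The mean was 263 ± 7.71 CPM in deficient and 197 ± 15.2 CPM in control MZ cells (SD, n = 4 each), a 1.33-fold difference (log2 0.41, SE 0.07; edgeR quasi-likelihood test, adjusted p = 0.00593). Leaving out each of the 8 libraries in turn kept the call, with log2 fold changes of 0.36 to 0.44. In the authors' deposited table the log2 fold change is 0.39 with an adjusted p of 2.87e-06. This is the factor whose 3′ UTR holds the 3 overlapping heptamers, and whether they bear on its level was not tested. Because FO cells carry more Pou2f2, FO markers are set beside it: the sum of 5 was 1808 to 2315 CPM in deficient and 1461 to 1830 CPM in control MZ libraries. One of them, Fcer2a, which encodes the sorting marker CD23, averaged 112 ± 35.5 CPM in deficient and 129 ± 44.6 CPM in control MZ cells, with 1287 ± 112 CPM in FO cells (SD, n = 4 each). The MZ marker sum was lower in the deficient libraries, as given above. The part of FO-like cells or of the MZ marker shift in the Pou2f2 difference was not tested.

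Its coactivator gene, Pou2af1, went the other way without passing the test. It had 650, 693, 633 and 585 CPM in deficient libraries, against 707, 715, 816 and 764 CPM in control libraries. The groups did not overlap, with the deficient libraries lower (log2 −0.24, SE 0.07; edgeR quasi-likelihood test, adjusted p = 0.0840). DESeq2 called it lower, with a log2 fold change of −0.23 and an adjusted p of 0.0272, and in the authors' deposited table it has −0.22 with an adjusted p of 0.0275.

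Bach2, a repressor that holds back plasma cell differentiation, had 40.3, 49.9, 50.6 and 43.2 CPM in deficient libraries, against 43.7, 33.9, 30.3 and 28.4 CPM in control libraries. Control replicate 3 lay inside the deficient range and the other 3 control libraries lay below it (log2 0.42, SE 0.12; edgeR quasi-likelihood test, adjusted p = 0.0749). Without control MZ replicate 3 the log2 fold change was 0.57 and passed the test (adjusted p = 0.0143). Over the ways of leaving out 1 library, the adjusted p lay between 0.0143 and 0.191. DESeq2 called Bach2 higher as well (0.43, adjusted p = 0.0224), and so did a fit on all 12 libraries (0.43, adjusted p = 0.0456). In the authors' deposited table it has 0.35 with an adjusted p of 0.0231.

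Bcl6, the other repressor of plasma cell genes, had 24.2, 26.4, 21.8 and 24.5 CPM in deficient libraries, against 27.6, 27.5, 29.1 and 29.9 CPM in control libraries. The deficient libraries were all lower, by a log2 fold change of −0.25 (SE 0.08) that did not pass the test (edgeR quasi-likelihood test, adjusted p = 0.120). Foxo1 likewise had 185 to 197 CPM in deficient and 203 to 237 CPM in control libraries, with no overlap (log2 −0.18, SE 0.07; adjusted p = 0.158 by the same test). Spib had 583 to 625 CPM in deficient and 628 to 694 CPM in control libraries (log2 −0.13, SE 0.06; adjusted p = 0.284 by the same test), again without overlap.

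In all, 5 of the 10 factors had ranges that did not overlap between deficient and control libraries, 1 higher (Pou2f2) and 4 lower (Bcl6, Foxo1, Spib and Pou2af1). Over all genes tested 11.9% were separated in this way, 6.31% higher and 5.58% lower. Among the 7163 genes with a mean of at least 20 CPM, a level chosen after the data were seen, 4.5% were called and 13.9% were separated, 7.32% higher and 6.62% lower.

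The remaining 4 factors overlapped between the groups. Spi1, which encodes PU.1, had 172, 136, 130 and 149 CPM in deficient libraries, against 121, 122, 139 and 125 CPM in control libraries. Only control replicate 5 reached into the deficient range (log2 0.20, 95% interval 0.04 to 0.37; edgeR quasi-likelihood test, adjusted p = 0.204). Beside this, the 10 myeloid markers, cells that also use Spi1, summed to 28.8 to 35.5 CPM in deficient and 25.8 to 32.9 CPM in control libraries, and the neutrophil gene Ly6g was at 0 in both groups. Of 7 myeloid markers tested, 1 was higher in deficient cells, the macrophage gene Adgre1, at 4.10 to 5.48 CPM in deficient and 0.696 to 2.24 CPM in control libraries (log2 1.37), and the other 6 were not called. Of 5 dendritic cell markers tested none was called, but Xcr1, at 2.43 to 2.90 CPM in deficient and 1.53 to 1.93 CPM in control libraries, did not overlap, nor did the untested Clec9a, at 0.224 to 0.761 CPM in deficient and 0 to 0.0741 CPM in control libraries. The part of such cells in the Spi1 values was not tested.

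Pax5, which maintains B cell identity, had the largest SE of the 10 factors. It had 38.6, 37.6, 46.8 and 50.5 CPM in deficient libraries, against 51.8, 49.3, 28.8 and 40.3 CPM in control libraries. The control libraries spanned the whole deficient range, and the 95% interval of the log2 fold change, −0.30 to 0.34, leaves room for changes in either direction (0.02, SE 0.16). Its sign turned without control MZ replicate 5 or 6 or deficient MZ replicate 7 or 8.

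Ebf1 averaged 401 ± 36.5 CPM in deficient and 364 ± 29.98 CPM in control MZ cells (SD, n = 4 each), with an interval of −0.03 to 0.29 for the log2 fold change. Ets1 averaged 1069 ± 88.3 CPM in deficient and 1034 ± 40.8 CPM in control MZ cells, with an interval of −0.11 to 0.19. The intervals of these 2 factors reach no higher than 0.29.

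**Figure D2:**
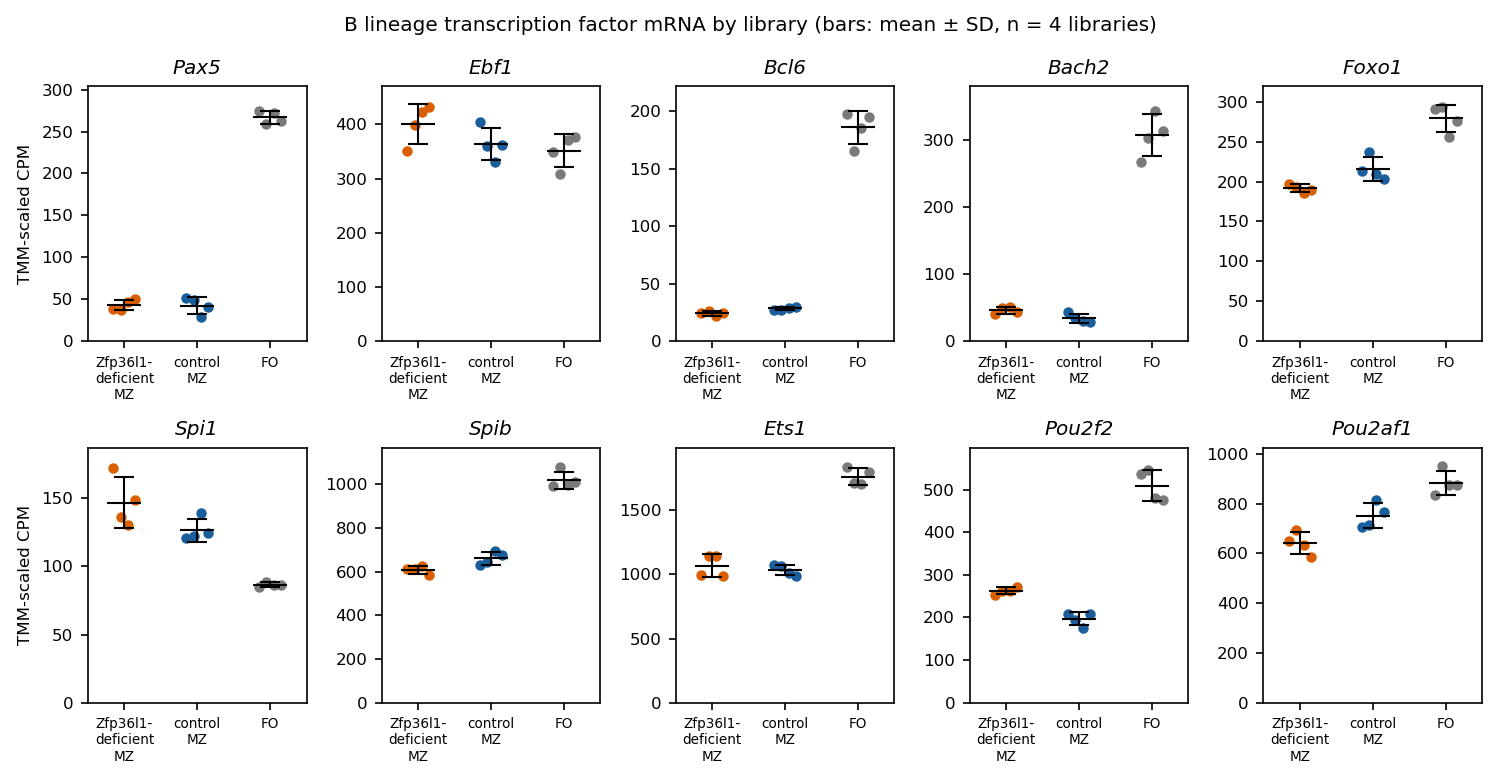
CPM of each factor (vertical axis, from 0) in deficient MZ, control MZ and FO libraries; each point is 1 library, and bars show the mean and SD over 4 libraries. In Pou2f2 the 4 deficient libraries, at 253 to 272 CPM, lie above the 4 control libraries, at 176 to 208 CPM, and in Pax5, Bcl6 and Bach2 the FO libraries stand far above both MZ groups.

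The second comparison set control MZ against FO cells. Here 9 of the 10 factors differed: Spi1 was higher in control MZ cells and 8 were lower, while Ebf1 did not pass the test. The table as a whole differed almost as often, with 11256 of 13843 genes called, or 81.3% (42.6% higher and 38.7% lower), so the 9 calls are near the background. The median log2 fold change was −0.69 over the 10 factors and 0.05 over all genes tested. The ranges of the same 9 factors did not overlap, 1 higher and 8 lower, against 76.9% of all genes tested (39.7% higher and 37.2% lower). Among the genes with a mean of at least 20 CPM, 85.0% were called and 81.1% were separated, 36.0% higher and 45.1% lower. An adjusted p under 0.05 stands beside 9 of the 10 in the authors' deposited table.

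Library preparation went with the cell type. The series' design text gives a SMARTer kit, 5 ng of input and paired 100 bp reads for MZ cells, but TruSeq chemistry for mRNA and single-end reads for FO cells, whereas the labels' extraction protocol lists SMARTer for all samples. Cell type, kit, read layout and genotype therefore cannot be told apart in the comparison of control MZ with FO cells. Bulk RNA also cannot separate a lower share of expressing cells from less mRNA per cell.

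Bach2 was the factor with the largest difference. It had 43.7, 33.9, 30.3 and 28.4 CPM in control MZ libraries, against 267, 303, 343 and 313 CPM in FO libraries. Every control MZ library was far below every FO library, 8.92-fold on average (log2 −3.16, SE 0.14; edgeR quasi-likelihood test, adjusted p = 9.73e-09). Bcl6 had 27.6, 27.5, 29.1 and 29.9 CPM in control MZ libraries, against 198, 166, 185 and 195 CPM in FO libraries. It was 6.47-fold lower in control MZ cells (log2 −2.69, SE 0.06; edgeR quasi-likelihood test, adjusted p = 5.53e-13).

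BCL6 is best known as the master regulator of germinal centre B cells. Of 6 germinal centre markers, 5 were lower in control MZ cells and 1 was higher, and their sum was 9.91 to 14.0 CPM in control MZ libraries against 17.9 to 32.8 CPM in FO libraries. Their part in the Bcl6 difference was not tested.

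Pax5 had 51.8, 49.3, 28.8 and 40.3 CPM in control MZ libraries, against 275, 259, 272 and 262 CPM in FO libraries. It was 6.22-fold lower in control MZ cells, with no overlap (log2 −2.64, SE 0.17; edgeR quasi-likelihood test, adjusted p = 8.25e-07). Ebf1, its partner upstream in B cell commitment, had 404, 361, 331 and 361 CPM in control MZ libraries, against 349, 309, 370 and 377 CPM in FO libraries. These overlapped, and the 95% interval of the log2 fold change was −0.08 to 0.21 (0.06, SE 0.08; adjusted p = 0.445 by the same test). Without FO replicate 4 the value was −0.0068.

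Among the ETS factors the directions differed. Spi1 had 121, 122, 139 and 125 CPM in control MZ libraries, against 84.6, 88.8, 86.3 and 86.5 CPM in FO libraries. It was 1.47-fold higher in control MZ cells (log2 0.56, SE 0.05; edgeR quasi-likelihood test, adjusted p = 2.46e-07). Of 7 myeloid markers tested beside it, 4 were higher and 1 was lower in control MZ cells, and the sum of all 10 was 25.8 to 32.9 CPM in control MZ and 16.03 to 38.3 CPM in FO libraries, so the sums overlapped. Csf1r, a myeloid growth factor receptor that PU.1 activates, averaged 3.69 CPM in control MZ and 0.606 CPM in FO cells. The part of such cells was not tested.

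Spib, the closest relative of Spi1 and a factor of mature B cells, had 628, 642, 694 and 678 CPM in control MZ libraries, against 991, 1077, 996 and 1008 CPM in FO libraries. It was 1.53-fold lower in control MZ cells (log2 −0.61, SE 0.05; edgeR quasi-likelihood test, adjusted p = 2.05e-07). Ets1, a factor that restrains plasma cell formation in mice, had 988 to 1070 CPM in control MZ and 1701 to 1834 CPM in FO libraries, and was 1.69-fold lower in control MZ cells (log2 −0.76, SE 0.06; adjusted p = 4.18e-08 by the same test). T cells also use Ets1, Foxo1 and Bach2. Their 7 markers summed to 37.1 to 48.2 CPM in control MZ and 38.4 to 48.0 CPM in FO libraries, nearly all of it Lck, and Cd3e and Cd4 were at 0 in control MZ libraries. In deficient MZ libraries the sum was 39.5 to 43.9 CPM. Of 2 T cell markers tested in each comparison, Lck was not called. The other, Cd8a, was higher in control MZ than in FO cells and in deficient than in control MZ cells. It lay at 0.641 to 3.16 CPM in deficient and 0.334 to 0.593 CPM in control MZ libraries. The part of T cells in these values was not tested.

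Both genes of the octamer pair were lower in control MZ cells, by unequal amounts. Pou2f2 had 208, 194, 176 and 208 CPM in control MZ libraries, against 536, 546, 479 and 476 CPM in FO libraries, a 2.57-fold difference (log2 −1.36, SE 0.07; edgeR quasi-likelihood test, adjusted p = 1.21e-09). Pou2af1 averaged 751 ± 50.2 CPM in control MZ and 883 ± 48.1 CPM in FO cells (SD, n = 4 each), and its highest MZ library, at 816 CPM, was just below its lowest FO library, at 834 CPM. This 1.17-fold difference passed the test (log2 −0.22, SE 0.06; adjusted p = 0.00406 by the same test) but not under upper-quartile scaling (−0.08, adjusted p = 0.206). Foxo1 averaged 215 ± 14.9 CPM in control MZ and 279 ± 17.1 CPM in FO cells (log2 −0.36, SE 0.06; adjusted p = 1.59e-04 by the same test).

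The scaling moved all values together. Upper-quartile scaling raised the median log2 fold change of all genes by 0.14, and Ebf1 then passed the test as higher in control MZ cells (0.20, adjusted p = 0.0234). Relative to that median, the log2 fold change was −0.28 for Pou2af1 and 0.0083 for Ebf1 under upper-quartile scaling, against −0.28 and 0.0084 under TMM scaling. With TMM scaling Pax5, Bcl6 and Bach2 stood at −2.69, −2.75 and −3.21 relative to the median.

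**Figure D3:**
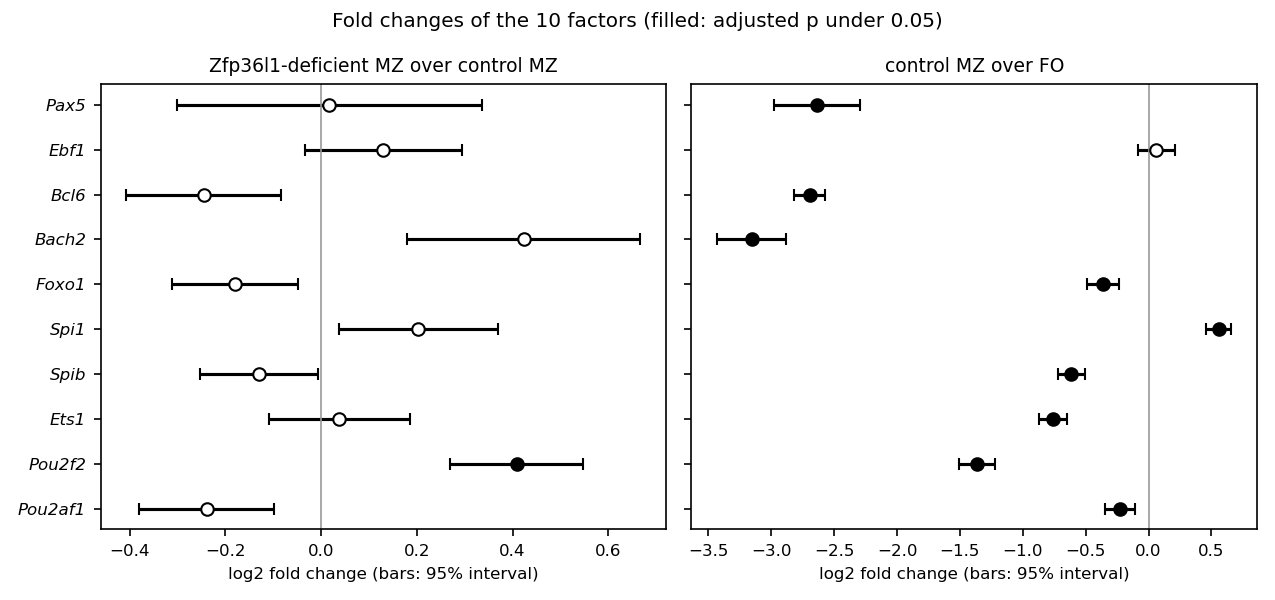
Log2 fold changes of the 10 factors (horizontal axes, with different ranges), deficient over control MZ on the left and control MZ over FO on the right; bars are 95% intervals and filled points have an adjusted p under 0.05. On the left Pou2f2 alone is filled, at 0.41, and on the right Ebf1 alone is open, at 0.06.

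Length moved with the contrast of control MZ and FO cells. Among all tested genes above 500 bp of exons, the median log2 fold change was lower in each longer length band, with 0.76 at 500 to 1000 bp and −0.51 above 10000 bp. The genes up to 500 bp did not follow this, with a median of −0.61. Of the 10 factors, 7 have more than 6 kb of annotated exons. Of the 500 tested genes nearest to Bach2 in exon length (9940 bp), the median log2 fold change was −0.31, against −3.16 for Bach2 itself. The like medians were −0.29 for Pax5, −0.23 for Bcl6, −0.23 for Pou2f2, −0.25 for Ets1, −0.27 for Foxo1 and −0.31 for Ebf1. Spi1, Spib and Pou2af1 are short, at 2549 to 2868 bp, and their medians were 0.30, 0.32 and 0.31. Set beside genes of its length, Foxo1 (−0.36) was therefore close to the median, and Spib (−0.61) and Pou2af1 (−0.22) lay below theirs. In the comparison of deficient and control MZ cells these medians stayed between −0.07 and 0.05. The length trend and the biology of the cells cannot be told apart in these libraries.

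**Figure D4:**
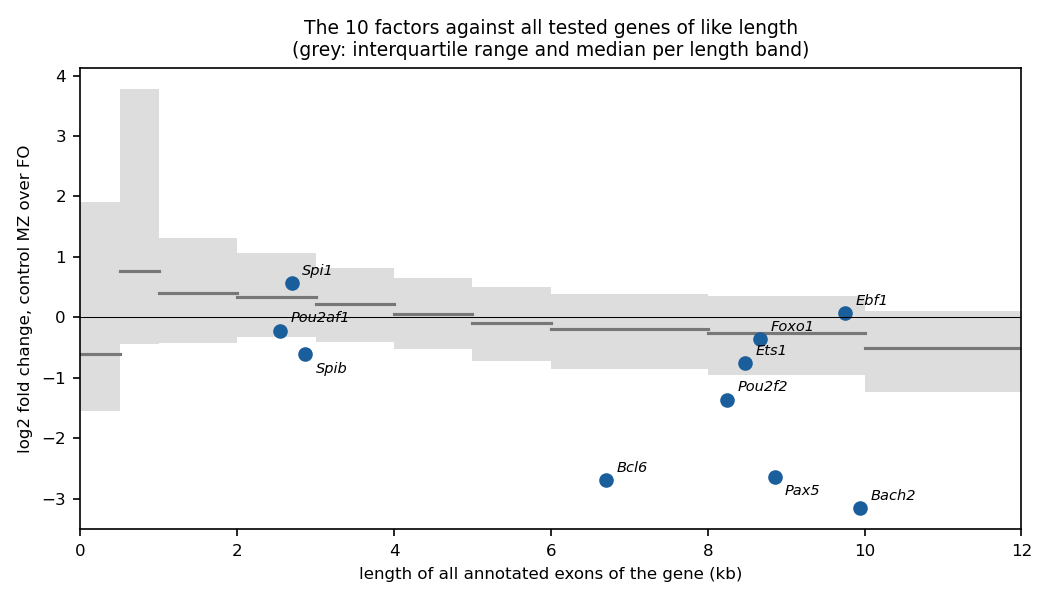
Log2 fold change of control MZ over FO (vertical axis) against the length of all annotated exons in kb (horizontal axis) for the 10 factors, with grey bands for the interquartile range and bars for the median of all tested genes in each length band. Bach2, Bcl6, Pax5, Pou2f2 and Spib lie below the bands of their length, and the other 5 factors lie inside them.

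On the opposite strand, annotated exons overlap 8.6% of the exon bases of Pax5, 7.78% of Foxo1, 5.4% of Bach2 and 0.31% of Bcl6, and none of the other 6 factors. The strand setting of the counting is not given, so reads of such overlaps cannot be assigned with certainty.

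Relatives of the factors gave a context for each family. The list held 27 genes, of which 13 were tested in deficient against control MZ cells. None was higher and 1 was lower, the ETS gene Elf2 (70.8 CPM in deficient and 92.5 CPM in control MZ cells; log2 −0.40, edgeR quasi-likelihood test, adjusted p = 0.0162), and the list's median was −0.07. Between control MZ and FO cells 14 were tested, 1 was higher, 11 were lower, and the median was −1.23. Of all genes tested in that comparison 81.3% were called, 42.6% higher and 38.7% lower, with a median of 0.05, so the 12 calls are near the background. The largest differences were in the FOXO family, with Foxo4 at 2.71 CPM in control MZ and 65.9 CPM in FO cells (log2 −4.59) and Foxo3 at 7.96 CPM in control MZ and 91.7 CPM in FO cells (−3.51). The BACH family gave Bach1 (−2.83), the ETS family Fli1 (−1.36) and the octamer family Pou2f1 (−1.41). Spic, of the same ETS subfamily as Spi1 and Spib, was higher in control MZ cells (10.4 CPM in control MZ and 6.05 CPM in FO cells; 0.80).

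Known target genes were then counted, from lists that share some members. Among 17 tested genes that PAX5 or EBF1 activate, 2 were higher in deficient than in control MZ cells and none was lower. These were Cd55, a complement regulator (log2 0.60), and Irf8, a B cell and myeloid factor (0.37). The B cell receptor genes Cd79a and Cd79b had log2 fold changes of 0.10 and 0.20 and were not called. In control MZ against FO cells 8 of these 17 were higher and 8 lower, with a median of −0.15, again a called share near the 81.3% of all genes. The counts of the lists that follow are to be read against that share in this comparison, and against 3.76% between deficient and control MZ cells. Cd79a (0.16), Cd79b (0.26) and the adaptor gene Blnk (1.01) were higher, and Cd55 (−2.98), Ikzf3 (−1.57), Ciita (−1.38) and Cd22 (−0.70) were lower. Pax5 mRNA itself was 6.22-fold lower in control MZ cells. Of this list, Cd79a averaged 3546 CPM in control MZ and 3190 CPM in FO cells. Larger differences went both ways. Cr2, the gene of the sorting marker CD21, was at 4114 CPM in control MZ and 1368 CPM in FO cells. Fcer2a, the gene of the sorting marker CD23, was at 129 CPM in control MZ and 1287 CPM in FO cells. Whether the Pax5 level bears on these genes was not tested.

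Of 6 tested genes that PAX5 represses, 1 was higher in deficient than in control MZ cells (Grap2, an adaptor gene; 0.39). Between control MZ and FO cells 3 were higher and 2 lower in MZ: Prdm1 (2.69), Xbp1 (1.13) and Csf1r (2.62) against Grap2 (−4.20) and Notch1 (−0.41). Prdm1 encodes BLIMP-1, the plasma cell regulator that BCL6 and BACH2 both restrain. It averaged 7.66 ± 0.950 CPM in deficient and 9.80 ± 1.74 CPM in control MZ cells, which did not pass the test (log2 −0.36; edgeR quasi-likelihood test, adjusted p = 0.203), and was at 1.52 ± 0.165 CPM in FO cells (SD, n = 4 each).

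Of 12 tested plasma cell genes, 1 was higher in deficient than in control MZ cells and 1 was lower. The secretory gene Fkbp11 was at 1.72 CPM in deficient and 0.599 CPM in control MZ cells (log2 1.51), and Irf4, a factor of plasma cell entry, was at 123 CPM in deficient and 174 CPM in control MZ cells (−0.52). In control MZ against FO cells 5 of the 12 were higher and 6 lower, with a median of 0.11. The 5 plasma cell markers summed to 201 to 220 CPM in control MZ and 97.7 to 123 CPM in FO libraries. Most of this sum was Xbp1, at 200 CPM in control MZ and 92.1 CPM in FO cells. Of the 4 markers tested, 2 were higher and 2 lower in control MZ cells. Mzb1, an endoplasmic reticulum chaperone gene, was higher in control MZ cells (1.90), whereas Sdc1, the plasma cell surface marker CD138, was lower (0.812 CPM in control MZ and 10.5 CPM in FO cells; −3.67).

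Among 16 tested FOXO1 targets, 5 were higher in deficient than in control MZ cells and none was lower, with a median of 0.18 beside −0.0037 for all genes. Klf2, a factor that controls lymphocyte traffic, was at 148 CPM in deficient and 40.4 CPM in control MZ cells (1.87). The homing gene Ccr7 (0.36) was higher as well, and it and Klf2 are also on the list of 5 FO markers. The PI3 kinase inhibitor gene Pik3ip1 (0.34) was higher, and Tcf7 (2.46) was at 1.03 CPM in deficient and 0.183 CPM in control MZ cells. Foxo1 itself did not pass the test in this comparison. Of these targets, 17 were tested between control MZ and FO cells: 7 of 17 were higher and 9 lower, with S1pr1, the sphingosine 1-phosphate receptor of lymphocyte egress, at 1.78, and Cdkn1b, a cell cycle inhibitor gene, at −3.88.

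Of 17 tested targets of PU.1, SPI-B, OCT-2 or OBF-1, 2 were higher in deficient than in control MZ cells and none was lower. One was Il5ra, the interleukin 5 receptor gene and a classical OCT-2 target (20.4 CPM in deficient and 8.93 CPM in control MZ cells; log2 1.19, edgeR quasi-likelihood test, adjusted p = 0.0105), and the other was Grap2. Another OCT-2 target, Cd36, was at 330 CPM in deficient and 339 CPM in control MZ cells and was not called (−0.04). In control MZ against FO cells 6 of the 17 were higher and 10 lower. Cd36 was higher in control MZ cells (2.90) while Il5ra was lower (−2.52). The kinase gene Btk (−0.96), P2ry10 (−2.53) and Nfkb1 (−1.85) were lower in control MZ cells too.

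Among 34 other B cell transcription factors tested, 6 were higher and 1 was lower in deficient than in control MZ cells, with a median of 0.05. Klf2, Zbtb32 (1.90), Bhlhe40 (1.25) and Myc (0.70) were among the higher, and Irf4 was the lower one. The change of Pou2f2 (0.41) was of the size of that of Irf8 (0.37).

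**Figure D5:**
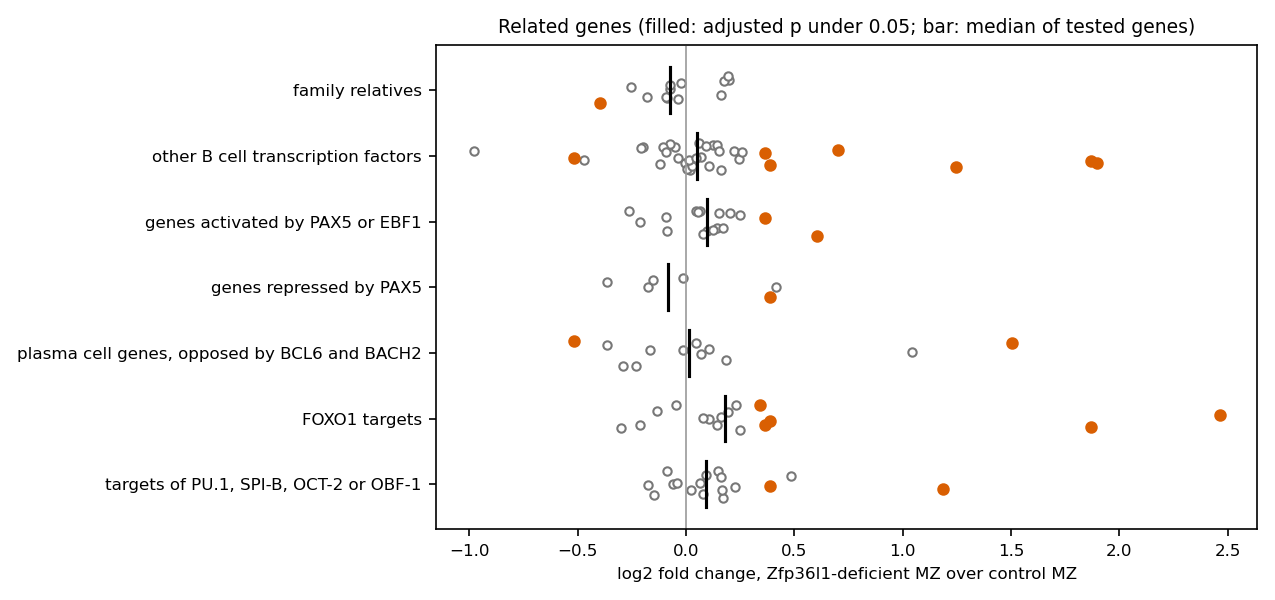
Log2 fold changes of deficient over control MZ cells (horizontal axis) for the tested genes of 7 lists of related genes (rows); filled points have an adjusted p under 0.05 and the bar is the list's median. The medians lie between −0.08 and 0.18, and single genes such as Tcf7 (2.46) and Klf2 (1.87) stand far from them.

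Profiles over all 12 libraries were compared as log2(CPM + 1) centred on each gene's mean, by root mean square difference, among 8430 genes with a mean of at least 10 CPM. Within the 10 factors Spib and Ets1 (0.12), Foxo1 and Pou2af1 (0.12), Pax5 and Bcl6 (0.29), and Ebf1 and Spi1 (0.31) were each other's nearest. Pou2f2 was nearest to Ets1 (0.27) and Bach2 to Pax5 (0.29). Among all genes the closest to Pou2f2 were Rasa3 (0.0987) and Sbk1 (0.106), to Pax5 Dclk2 (0.138) and Pag1 (0.141), to Bach2 Brwd3 (0.128) and Cmtr1 (0.141), and to Bcl6 Rsbn1l (0.107) and Rab5c (0.107). Spi1 was closest to Cops6 (0.0377). The values describe likeness in these libraries, which share kit and read layout within each cell type.

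Promoters of the factors were read from RefSeq (GRCm38.p6), 250 bases before to 50 after each start, for 10 promoters of 8 factors. The octamer ATGCAAAT that OCT-2 binds was in none of the 10, and in 1.74% of 32851 promoters on either strand. The ETS motif GAGGAAGT was in none of the 10 and in 3.20% of all promoters. The EBF1 palindrome CCCCAGGGG was in 0.758% of all promoters and in 1 of the 10, that of Spib. It starts 65 bases before the Spib start and is shown as the single match. The capitals, read on the gene's strand, are the reverse complement of the motif letters given above.
Spib, chr7:44532118-44532147 (− strand), 1 match: cccatggcccgCCCCTGGGGgtaggtaggc

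This match is a description of the letters in this window. Spib differed between control MZ and FO cells (−0.61), whereas Ebf1 did not pass the test in either comparison.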

How the data were processed

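The authors deposited raw counts of whole reads for each Ensembl gene and library. The submitters' processing notes name TopHat2 2.0.12 and Trim Galore, then HTSeq, DESeq2 1.10.1 and the build GRCm38. Annotation release, counting mode and strand setting are not stated there. The authors' deposited normalised signal equals the count divided by 1 factor per library, 0.842 to 1.15, and was used for nothing else. The log2 fold changes and adjusted p-values in the authors' deposited tables are quoted as theirs.

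Counts were tested with edgeR 4.0.16 (R 4.3.3): TMM scaling, filterByExpr by group, a robust quasi-likelihood fit and Benjamini-Hochberg adjustment over all genes tested. A gene was called at an adjusted p under 0.05. Each comparison used its own 8 libraries. Levels are CPM and RPKM with TMM scaling over 12 libraries and the union of exons. Intervals are 1.96 SE to each side, unadjusted for the number of genes. Of the IDs, 42462 matched GENCODE M21. The biological coefficient of variation was 0.123 in the fit of deficient and control MZ libraries and 0.104 in that of control MZ and FO libraries. The procedure was tested on simulated data.

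The 10 genes, the lists of related genes and markers and the tests were chosen with earlier results of these data known. From each list the text names up to 4 called genes per direction by smallest p, plus Prdm1, Irf4, Irf8, Xbp1, Klf2, Cd79a, Cd79b, Foxo3, Bach1, Pou2f1, Fli1, Ets2 and Spic where they bear on a count. Adgre1, Xcr1, Clec9a, Cd8a, Cr2 and Fcer2a, and Cd36 and Il5ra in both comparisons, were named after their values were seen. A few qualifying genes are left out of this text. Alternatives were RLE and upper-quartile scaling, DESeq2 1.42.0, other filters, a fit on 12 libraries, leaving out each library, a replicate block and another gene length. Libraries were also checked for outliers. No sequences for the promoters of Spi1 and Ets1 were used here.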

Additional observations from a re-analysis of the deposited data

How the results depend on the processing

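In deficient against control MZ cells, 3 factors were called by DESeq2 (with 1033 genes in all) and 2 in the fit of all 12 libraries (790 genes), against 1 factor and 526 genes. Leaving out 1 library gave 1 to 2 factors and 257 to 506 genes, with 309 genes without control MZ replicate 3, 257 without replicate 4, 311 without replicate 6 and 299 without deficient MZ replicate 8. The log2 fold change of Pax5 ran from −0.13 to 0.13 over these. Of the 60 other member values under settings that keep all libraries, 57 kept direction and call, and the cause of the changes was not tested. In control MZ against FO cells, 9 factors were called whichever library was left out, and Ebf1 ran from −0.0068 to 0.11. With the replicate number as a replicate block, which rests on the 2 numbers that both groups share, 10 factors and 9882 genes were called, Ebf1 among them (0.23, adjusted p = 0.00898). Same-numbered libraries did not deviate together (correlations −0.05 and −0.12). Deficient and control MZ groups share no number, so no block was possible there. RPKM moved by more than 1 SD in 18 of 60 alternatives. At 28938453 to 40664963 counts per library, Pax5 had the widest interval of the 10 in both comparisons.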
